A study of Mus musculus with 4 samples.

Results

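The genes described here build, crosslink, degrade and regulate the extracellular matrix of the heart. They are 50 genes chosen by name: fibrillar and network collagens, basement membrane chains, small proteoglycans, elastic fibre and adhesive proteins, crosslinking enzymes, proteases and their inhibitors, TGF-beta ligands and a pair of receptors. A gene was measured where the platform annotation gave its symbol to a probe, and kept where that probe exceeded the 95th percentile of blank and negative control spots on at least 2 arrays. Of the 50 genes, 49 had a named probe and 47 were kept, out of 15955 genes kept in all. Fmod (fibromodulin) and Thbs1 (thrombospondin-1) were not above background on any array, and Fbn1 was not analysed here.

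Ventricles of mice with a genetic deletion of Trpc6 (KO, 2 samples) were set against ventricles of wild-type mice (WT, 2 samples). All samples came from the muscle of the ventricle of male 129SV mice, and each was read on 1 array in 1 colour (Cy5). Age, the extent of the deletion and whether the replicates came from different animals are not stated in the labels. The p-values therefore rest on the scatter of 2 samples per genotype, and this scatter may be technical. The comparison asks how transcript levels in the ventricle differ without TRPC6, a calcium-permeable channel that is gated by receptor signalling through diacylglycerol.

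In the ventricle, fibroblasts secrete most of the fibrillar collagen that ties muscle bundles together, while a basement membrane of collagen IV, laminin, nidogen and perlecan wraps each myocyte and capillary. Metalloproteinases cut this matrix, TIMP proteins hold them in check, and TGF-beta, stored in the matrix in a latent form, drives fibroblasts towards collagen synthesis. TRPC6 has been linked to the conversion of fibroblasts into contractile, matrix-producing myofibroblasts.

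Values below are normalized log2 intensities on each array, replicate 1 before replicate 2, and a fold change is the KO mean minus the WT mean on that log2 scale, given ± its standard error from limma. Intensities of different probes are not comparable as transcript levels. The median gene probe read 97.1 to 97.7 units on the KO arrays and 95.5 to 106 units on the WT arrays, and the background threshold was 83.3 to 85.5 units on the KO and 80.8 to 91.5 units on the WT arrays. Many matrix probes were dim: 20 of the 47 kept genes stayed under 1.5 times the threshold on every array, and the offset used in background correction shrinks the fold changes of such probes. Precision is limited by having 2 arrays per genotype. Trpc6 gives no check of the labels, because its probe was not above background on any array, at 84.1 and 82.6 units on the KO arrays, against 80.5 and 89.2 units on the WT arrays. All 12 cardiomyocyte markers were kept, and Mb (myoglobin) held the same normalized value on all 4 arrays because quantile normalization fixes the top ranks, so these markers do not compare cardiomyocyte content between arrays.

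No matrix gene passed the test over all genes, and most of the 47 lay close to no difference. The median fold change was 0.04, against 0.00 over all genes tested, and 32 of the 47 had an absolute fold change under 0.1. Above 0, that is higher in the KO, were 33 of 47 genes (70.2%), against 51.1% of all genes tested. Without the second WT array the median was 0.01 and 27 of 47 genes were above 0, as were 7795 of all 15955 genes. Without the second KO array the median was also 0.01 and 28 of 47 genes were above 0, as were 7976 of all genes. The median was 0.05 without the first WT array (32 of 47 above 0) and 0.05 without the first KO array (37 of 47 above 0). Fibronectin (Fn1), the laminin gamma-1 chain (Lamc1) and matrix Gla protein (Mgp) had fold changes above 0 with an unadjusted limma p under 0.05, and decorin (Dcn) and the laminin beta-2 chain (Lamb2) had fold changes below 0 with one.

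With limma, 0 of the 15955 genes had an adjusted p under 0.05 (0%), and 1076 (6.74%) had an unadjusted p under 0.05. Among the 47 matrix genes, 3 lay higher in the KO at that unadjusted level (3.67% of all genes) and 2 lower (3.08% of all genes), and the smallest adjusted p was 0.727. The KO and WT arrays did not overlap in 14 of 47 matrix genes (29.8%), against 36.8% of all genes tested, a share that the matrix genes did not exceed. The KO lay higher without overlap in 9 of the 47, against 19.4% of all genes, and lower in 5 of the 47, against 17.4%. Absolute fold changes of at least 0.3 belonged to 3 of the 47, Col3a1, Fn1 and Dcn, against 1.63% of all genes.

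**Figure D1:**
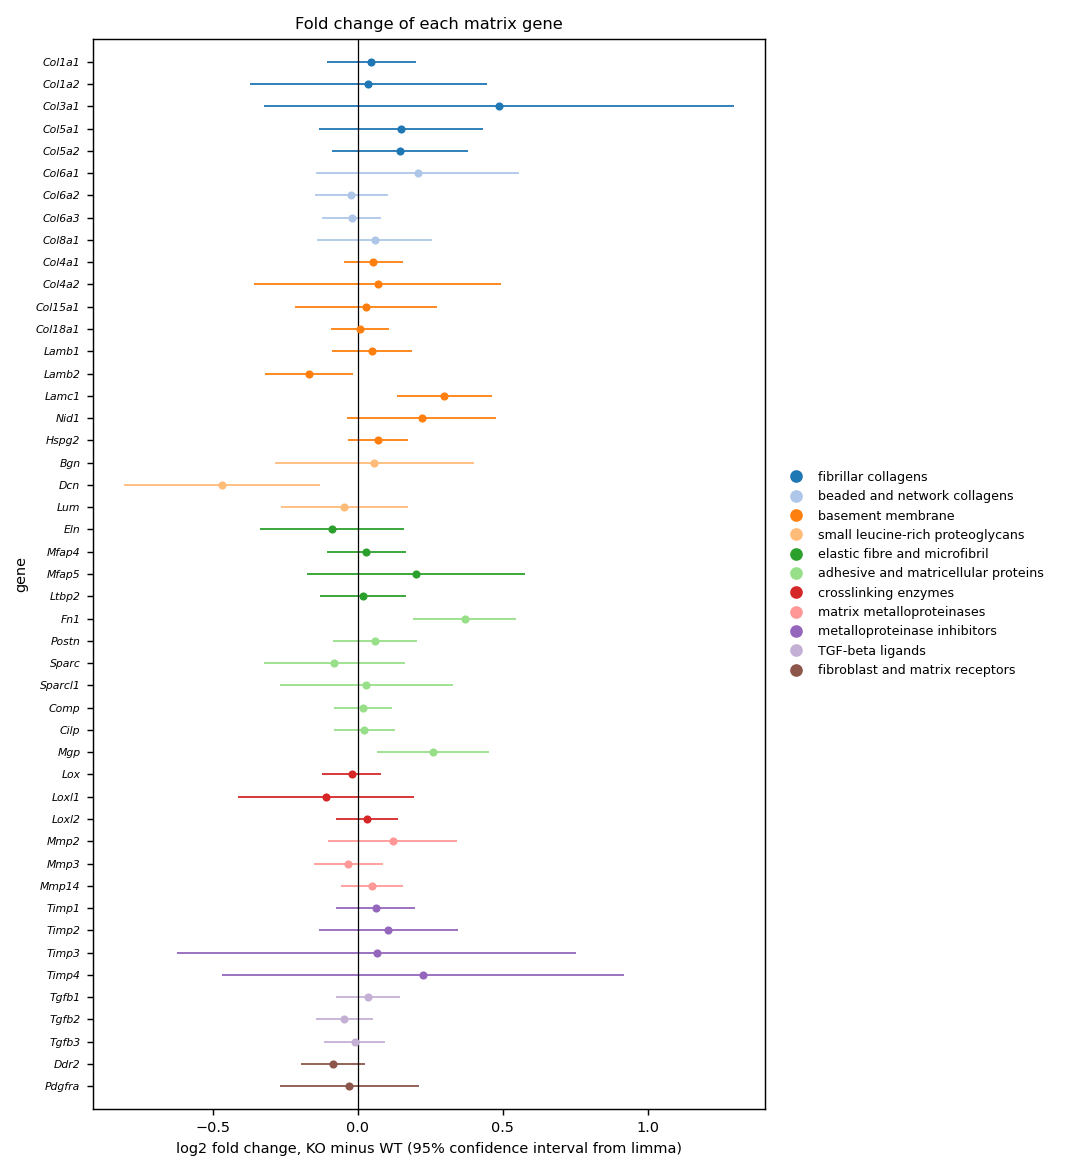
Log2 fold change of each of the 47 kept matrix genes, KO minus WT, with its 95% confidence interval from limma, coloured by role. The intervals of Fn1, Lamc1 and Mgp lie above 0 and those of Dcn and Lamb2 below 0, before any adjustment for the 15955 genes tested, and the widest belong to Col3a1, Timp3 and Timp4.

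RefSeq promoter windows of build GRCm38.p6, which run from 250 bases before to 50 bases after a gene's start, matched 32 of the 50 genes by symbol. No window was matched for Fn1, Lamc1, Mgp or Dcn, and the 6 windows below belong to other genes described here. Col3a1 and Col1a2 are fibrillar collagens with a low value on the second WT array, Nid1 and Lamb2 are basement membrane genes whose groups did not overlap, in opposite directions, and Timp3 and Timp4 shared a low value on the first WT array. Capitals mark matches, on either strand, to CAGAC (the core bound by SMAD factors, which carry TGF-beta signals), GGGCGG (Sp1), CCAAT (the CCAAT box), TATAAA (the TATA box) and TGANTCA (AP-1). No 2 matches overlap in these windows.
Col3a1 promoter, chr1:45311288-45311587, plus strand: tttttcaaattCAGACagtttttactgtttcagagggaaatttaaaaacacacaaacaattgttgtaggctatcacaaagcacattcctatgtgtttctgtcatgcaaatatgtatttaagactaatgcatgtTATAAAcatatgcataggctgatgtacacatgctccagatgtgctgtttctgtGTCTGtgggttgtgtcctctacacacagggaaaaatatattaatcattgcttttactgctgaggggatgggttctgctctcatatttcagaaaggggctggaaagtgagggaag
Col1a2 promoter, chr6:4505368-4505667, plus strand: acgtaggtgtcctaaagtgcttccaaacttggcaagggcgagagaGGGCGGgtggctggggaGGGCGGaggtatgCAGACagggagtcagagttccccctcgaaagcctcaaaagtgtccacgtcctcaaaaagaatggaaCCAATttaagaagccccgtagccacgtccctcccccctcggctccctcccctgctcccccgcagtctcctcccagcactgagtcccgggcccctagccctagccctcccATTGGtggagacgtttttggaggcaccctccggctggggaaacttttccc
Nid1 promoter, chr13:13437352-13437651, plus strand: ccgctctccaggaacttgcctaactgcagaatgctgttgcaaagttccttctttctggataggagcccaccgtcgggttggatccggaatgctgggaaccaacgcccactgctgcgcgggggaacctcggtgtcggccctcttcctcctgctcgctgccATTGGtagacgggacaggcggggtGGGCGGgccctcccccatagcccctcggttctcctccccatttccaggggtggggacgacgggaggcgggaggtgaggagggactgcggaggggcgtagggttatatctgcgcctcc
Lamb2 promoter, chr9:108479612-108479911, plus strand: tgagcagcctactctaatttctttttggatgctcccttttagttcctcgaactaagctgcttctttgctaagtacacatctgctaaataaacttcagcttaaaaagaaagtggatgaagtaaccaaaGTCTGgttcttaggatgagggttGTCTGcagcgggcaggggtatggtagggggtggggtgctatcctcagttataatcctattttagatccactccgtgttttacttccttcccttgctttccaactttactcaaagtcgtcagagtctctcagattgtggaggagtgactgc
Timp3 promoter, chr10:86300162-86300461, plus strand: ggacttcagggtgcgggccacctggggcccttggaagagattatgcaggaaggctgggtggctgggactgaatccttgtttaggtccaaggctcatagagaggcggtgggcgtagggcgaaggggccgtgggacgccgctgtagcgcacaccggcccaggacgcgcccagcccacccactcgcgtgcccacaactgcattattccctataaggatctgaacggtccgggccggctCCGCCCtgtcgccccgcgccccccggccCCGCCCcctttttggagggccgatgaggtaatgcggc
Timp4 promoter, chr6:115252156-115252455, minus strand: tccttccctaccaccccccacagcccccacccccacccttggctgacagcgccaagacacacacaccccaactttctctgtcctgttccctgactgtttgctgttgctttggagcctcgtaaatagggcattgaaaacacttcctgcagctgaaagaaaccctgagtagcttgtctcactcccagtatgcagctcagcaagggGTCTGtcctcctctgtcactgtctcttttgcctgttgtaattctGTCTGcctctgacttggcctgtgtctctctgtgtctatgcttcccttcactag

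The fibrillar collagen windows differ in their letters. The Col3a1 window has a GC content of 37.7% and holds CAGAC in 2 places and TATAAA in 1, while the Col1a2 window, at 61% GC, holds GGGCGG in 2 places, CCAAT in 2 and CAGAC in 1. Each of the Lamb2 and Timp4 windows holds CAGAC in 2 places and none of the other 4 motifs, and the Timp3 window holds GGGCGG in 2. In all, CAGAC occurred in 18 of 35 windows of matrix genes (51.4%), against 49.6% of all 32851 windows, and GGGCGG in 19 of 35 (54.3%), against 35.7%. CCAAT was found in 34.3% of matrix windows and 37.4% of all windows, TATAAA in 14.3% and 13.6%, and TGANTCA in 5.71% and 7.81%. The 35 windows are not all distinct. Col18a1, Col6a2 and Postn have more than 1 window each, and those of Col6a2 overlap. The windows of Col4a1 and Col4a2 also overlap and share a GGGCGG match. All windows were not matched to these in GC content. A match describes letters in the window, and no binding was measured.

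Fibrillar collagens, the tensile fibres of the interstitium, had fold changes above 0 in all 5 genes (51.1% of all genes lay above 0). None had an unadjusted limma p under 0.05, and Col3a1 had the widest spread. Col3a1, the chain of collagen III, was at 9.02 and 9.07 on the KO arrays, against 9.01 and 8.11 on the WT arrays. Both KO arrays and the first WT array lay within 0.1 of each other, and the second WT array was alone at the low end. The spot medians behind these values were 536 and 554 units on the KO arrays, against 539 and 327 units on the WT arrays. Its fold change was 0.49 ± 0.30, or 1.4-fold, with an unadjusted limma p of 0.177 and an adjusted p of 0.81, and was 0.03 without the second WT array and 0.94 without the first. A second, dimmer Col3a1 probe had a fold change of 0.04. The sign of the brighter probe turned when the local background was subtracted, at -0.94.

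The chains of collagen I, the main fibre of scar and normal interstitium, showed no separation of the groups. Col1a2 was at 8.55 and 8.48 on the KO arrays, against 8.70 and 8.26 on the WT arrays, with the highest and the lowest value both in WT. Without the second WT array its fold change was -0.19, and without the first 0.26. Col1a1, whose probe was dim, was at 6.14 and 6.25 on the KO arrays, against 6.19 and 6.11 on the WT arrays. Collagen V chains start and limit the width of collagen I fibrils. Of these, Col5a1 was at 7.15 and 7.23 on the KO arrays, against 7.18 and 6.90 on the WT arrays, and Col5a2, the gene next to Col3a1 on chromosome 1 in the RefSeq table, was at 6.98 and 7.12 on the KO arrays, against 7.01 and 6.81 on the WT arrays. The groups overlapped in Col1a1, Col1a2, Col5a1 and Col5a2, with fold changes of 0.05 ± 0.06, 0.04 ± 0.15, 0.15 ± 0.11 and 0.15 ± 0.09. With the local background subtracted the fold change of Col1a1 was -0.12, and those of Col1a2, Col5a1 and Col5a2 stayed above 0.

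All 5 fibrillar collagens had their lowest value on the second WT array, though only 2 of 5 did with the local background subtracted. For Col1a1 the distance to the next array was small beside the difference between the KO arrays. That array was the lowest of the 4 in 23 of the 47 matrix genes (48.9%), against 32.3% of all genes tested, and in 16 with the local background subtracted, against 24.1% of all genes. KO replicate 1 was the lowest in 7 (20.8% of all genes), KO replicate 2 in 8 (24.6%) and WT replicate 1 in 9 (22.4%). Without WT replicate 2 the fold changes of the 5 fibrillar collagens ranged from -0.19 to 0.05, and without the first WT array from 0.09 to 0.94. In neither case did any of them have an adjusted p under 0.05. With the first WT array left out, 14.7% of all genes tested had an unadjusted p under 0.05, so such p-values were common in that fit.

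Other fibroblast genes were read beside these collagens. Of 11 fibroblast markers outside the matrix list, all 11 were kept and 6 had their lowest value on the second WT array, among them dermatopontin (Dpt), at 8.72 and 8.68 on the KO arrays, against 8.99 and 8.16 on the WT arrays, and Pi16, at 7.99 and 7.98 on the KO arrays, against 8.13 and 7.74 on the WT arrays. Vim, the intermediate filament gene vimentin, was highest there, at 9.92 and 9.93 on the KO arrays, against 9.77 and 10.14 on the WT arrays. The summed normalized intensity of the 11 markers, on the linear scale, was 7059 and 6725 units on the KO arrays, against 7733 and 6890 units on the WT arrays. The brightest marker, Gsn (gelsolin), made up most of that sum, and the other 10 summed to 2413 and 2396 units on the KO arrays, against 2460 and 2347 units on the WT arrays. Of 11 macrophage markers, 8 were lowest on the second WT array, and their sum was 2411 and 2791 units on the KO arrays, against 2425 and 2110 units on the WT arrays. The part of these cell types in the collagen values was not tested, and in whole ventricle fewer cells of a type and less RNA per cell cannot be told apart.

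**Figure D2:**
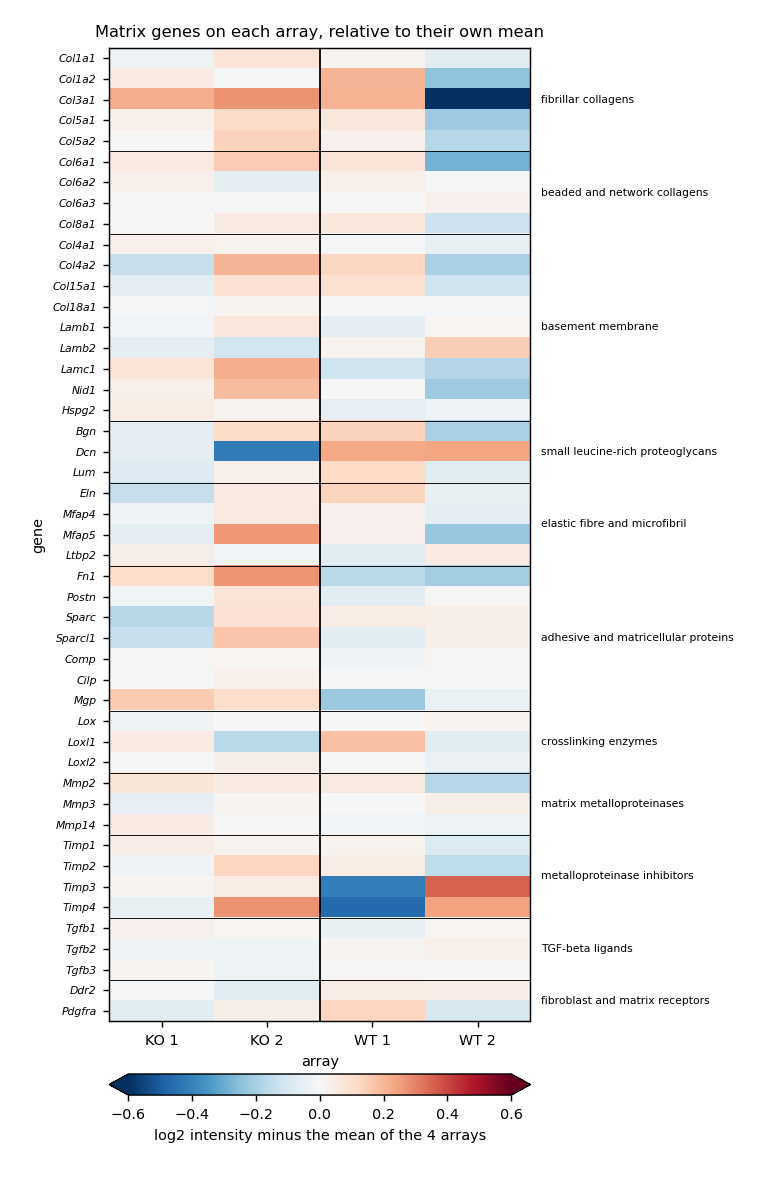
Log2 intensity of each kept matrix gene (rows, grouped by role) on each array (columns, KO left of WT), as the difference from the gene's mean over the 4 arrays. The second WT array is the lowest for all 5 fibrillar collagens (2 of 5 with the local background subtracted), the first WT array is low for Timp3 and Timp4, and Dcn is low on the second KO array.

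Beaded and network collagens gave 2 fold changes above and 2 below 0. Collagen VI forms beaded filaments next to basement membranes. Col6a1 followed the fibrillar collagens, at 7.26 and 7.36 on the KO arrays, against 7.29 and 6.92 on the WT arrays, and its fold change of 0.21 ± 0.13 was 0.02 without the second WT array. Its neighbour and partner chain Col6a2 was at 7.23 and 7.15 on the KO arrays, against 7.23 and 7.20 on the WT arrays, and Col6a3, near background, was at 6.01 and 6.01 on the KO arrays, against 6.02 and 6.04 on the WT arrays. Although the Col6a3 groups did not overlap, the fold change was -0.02. Col8a1, a short-chain collagen of vessel walls, had a fold change of 0.06 ± 0.07 at its brightest probe, and -0.03 and -0.04 at its other 2 probes.

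Basement membrane genes had 8 fold changes above and 1 below 0 among 9 (51.1% of all genes lay above 0), and in 5 of the 9 the groups did not overlap (36.8% of all genes). Those above 0 were 6 of 9 without the second WT array and 5 of 9 without the second KO array. Lamc1, the gamma chain found in most laminin trimers, was at 7.99 and 8.12 on the KO arrays, against 7.78 and 7.73 on the WT arrays. The lower KO array lay 0.20 above the higher WT array. Lamc1 averaged 8.05 ± 0.10 in KO and 7.75 ± 0.04 in WT ventricle (SD, n = 2 each), 1.23-fold higher in the KO, with a fold change of 0.30 ± 0.06, an unadjusted limma p of 0.00607 and an adjusted p of 0.727. With each array left out in turn it was 0.23 to 0.37.

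Lamb2, the laminin beta chain of synapses and of mature muscle, was the 1 basement membrane gene with a fold change below 0. It was at 10.44 and 10.39 on the KO arrays, against 10.52 and 10.65 on the WT arrays, with both KO arrays under both WT arrays. Its fold change was -0.17 ± 0.06, or 1.12-fold lower, with an unadjusted limma p of 0.0373 and an adjusted p of 0.727, and was -0.11 without the second WT array. The unadjusted p was under 0.05 in 5 of 15 alternatives of processing or of arrays left out for Lamb2, against 15 of 15 for Fn1, 13 of 15 for Lamc1 and for Dcn and 10 of 15 for Mgp. The other laminin beta chain on the list, Lamb1, was at 6.62 and 6.70 on the KO arrays, against 6.58 and 6.65 on the WT arrays, and its groups overlapped.

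Nid1, which links laminin to collagen IV, was at 8.63 and 8.79 on the KO arrays, against 8.60 and 8.38 on the WT arrays. The groups did not overlap, by a margin of 0.03 between the lower KO and the higher WT array. Nid1 had a fold change of 0.22 ± 0.10 with an unadjusted limma p of 0.0787 and an adjusted p of 0.76, and one of 0.11 without the second WT array. Col4a1 and Col4a2, the common chains of collagen IV, are transcribed in opposite directions from starts so close that their promoter windows share 78 bases. Col4a2 was at 8.06 and 8.41 on the KO arrays, against 8.33 and 8.01 on the WT arrays, with KO replicate 1 and WT replicate 2 low and the other arrays high. The dim Col4a1 probe was at 6.18 and 6.18 on the KO arrays, against 6.14 and 6.11 on the WT arrays. Fold changes were 0.05 ± 0.04 for Col4a1 and 0.07 ± 0.16 for Col4a2.

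The remaining basement membrane genes were near background. Hspg2, which encodes perlecan, was at 6.16 and 6.14 on the KO arrays, against 6.07 and 6.10 on the WT arrays, and both KO arrays lay above both WT arrays, by a margin of 0.04. Col15a1 and Col18a1, collagens with heparan or chondroitin sulfate chains, had fold changes of 0.03 ± 0.09 and 0.01 ± 0.04.

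Among the small leucine-rich proteoglycans, which coat collagen fibrils and set their spacing, decorin was the 1 gene of 3 kept whose groups did not overlap. Dcn was at 11.21 and 10.85 on the KO arrays, against 11.49 and 11.50 on the WT arrays. The WT arrays read almost the same value, and the KO arrays lay below them by unequal amounts. Spot medians were 2378 and 1766 units on the KO arrays, against 2838 and 3175 units on the WT arrays. Dcn averaged 11.03 ± 0.26 in KO and 11.50 ± 0.00 in WT ventricle (SD, n = 2 each), 1.38-fold lower in the KO, with a fold change of -0.47 ± 0.13, an unadjusted limma p of 0.0172 and an adjusted p of 0.727. It was -0.29 without the second KO array and -0.65 without the first. In the authors' deposited table Dcn was at 2181 and 1723 units in the KO, against 2711 and 2491 units in the WT. Decorin binds TGF-beta as well as collagen.

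Lumican (Lum), the gene next to Dcn on chromosome 10 in the RefSeq table, was at 8.87 and 8.97 on the KO arrays, against 9.06 and 8.87 on the WT arrays, and biglycan (Bgn) was at 8.98 and 9.15 on the KO arrays, against 9.18 and 8.85 on the WT arrays. The groups overlapped in both, with fold changes of -0.05 ± 0.08 for Lum and 0.06 ± 0.13 for Bgn. In the list of other matrix proteins, the related proteoglycans with an unadjusted p under 0.05 were osteoglycin (Ogn) and Prelp, both lower in the KO, while asporin (Aspn), named after its values were seen, had a fold change of 0.05 ± 0.04. Ogn averaged 8.62 ± 0.20 in KO and 9.04 ± 0.06 in WT ventricle (SD, n = 2 each), with a fold change of -0.42 ± 0.11, and Prelp was at 6.84 and 6.81 on the KO arrays, against 6.96 and 7.03 on the WT arrays, with one of -0.17 ± 0.05. Unadjusted limma p-values were 0.0135 and 0.0167, and both adjusted p-values were 0.727.

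Genes of the elastic fibre, which lets vessel walls and valves recoil, overlapped between the groups in all 4 kept cases. Elastin (Eln) was at 7.17 and 7.36 on the KO arrays, against 7.44 and 7.27 on the WT arrays, with a fold change of -0.09 ± 0.09. Mfap5, a microfibril glycoprotein, was at 7.87 and 8.19 on the KO arrays, against 7.95 and 7.70 on the WT arrays, with a fold change of 0.20 ± 0.14, which was 0.04 without the second KO array. Mfap4, an elastic fibre glycoprotein, and Ltbp2, a fibrillin-binding protein, had fold changes of 0.03 ± 0.05 and 0.02 ± 0.06 near background.

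Of the adhesive and matricellular proteins, which connect cells to the matrix or modulate that contact, 6 of 7 had fold changes above 0. Of all genes 51.1% lay above 0. Those above 0 were 5 of 7 without the first WT array and 5 of 7 without the second KO array. They were 6 of 7 without the second WT array and 7 of 7 without the first KO array. Fn1, the fibronectin gene, whose product is laid down early in wounds and guides collagen assembly, was at 7.35 and 7.51 on the KO arrays, against 7.09 and 7.04 on the WT arrays. Each KO array exceeded each WT array by at least 0.26. Fn1 averaged 7.43 ± 0.11 in KO and 7.06 ± 0.03 in WT ventricle (SD, n = 2 each), 1.29-fold higher in the KO, with a fold change of 0.37 ± 0.07 and a 95% interval of 0.19 to 0.54. Its unadjusted limma p of 0.00369 was the smallest of the 47 genes, and its adjusted p was 0.727. Leaving out each array in turn gave 0.29 to 0.45. Spot medians were 186 and 207 units on the KO arrays, against 162 and 173 units on the WT arrays. The authors' deposited table gave 98.5 and 128 units in the KO, against 82.0 and 68.8 units in the WT.

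Mgp, whose product inhibits calcification of vessels and cartilage, was at 10.20 and 10.15 on the KO arrays, against 9.83 and 10.01 on the WT arrays. Its KO arrays were close together and above both WT arrays. The fold change was 0.26 ± 0.07, or 1.2-fold, with an unadjusted limma p of 0.0195 and an adjusted p of 0.727, and was 0.17 without the first WT array. Markers of smooth muscle and pericytes, among the cells known to express Mgp, gave 4 of 11 fold changes above 0, with a summed normalized intensity of 4961 and 4717 units on the KO arrays, against 4773 and 4617 units on the WT arrays. Without the brightest, Acta2, the sum was 3097 and 3370 units on the KO arrays, against 3440 and 3398 units on the WT arrays, and their part in the Mgp values was not tested.

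The other adhesive proteins lay close to level. Sparc, a collagen-binding glycoprotein, was at 8.93 and 9.18 on the KO arrays, against 9.14 and 9.14 on the WT arrays, and its relative Sparcl1 was at 10.18 and 10.48 on the KO arrays, against 10.25 and 10.35 on the WT arrays. In both, the KO arrays differed from each other more than the WT arrays did, and the fold changes were -0.08 ± 0.09 and 0.03 ± 0.11. Periostin (Postn), a marker of activated fibroblasts, was dim, at 6.27 and 6.37 on the KO arrays, against 6.23 and 6.30 on the WT arrays, with overlapping groups. Comp, a cartilage matrix protein, and Cilp, which restrains TGF-beta signalling in fibroblasts, had fold changes of 0.02 ± 0.04 and 0.02 ± 0.04.

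**Figure D3:**
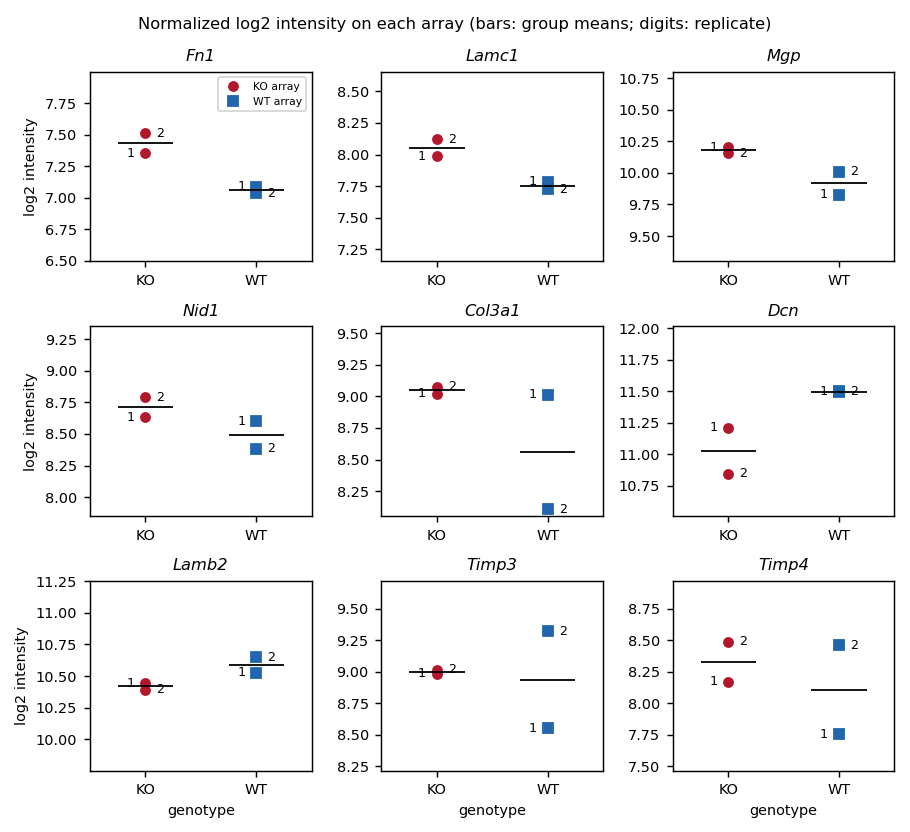
Normalized log2 intensity of 9 matrix genes on each array, KO left of WT, with bars at the group means and the replicate number beside each point. Every panel spans the same range of log2 units. The groups lie apart in Fn1, Lamc1, Mgp, Dcn and Lamb2, narrowly so in Nid1 and in Col3a1, and the WT arrays of Col3a1, Timp3 and Timp4 lie far from each other.

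Lysyl oxidases crosslink collagen and elastin. Loxl1 was at 6.80 and 6.59 on the KO arrays, against 6.93 and 6.68 on the WT arrays, with one high and one lower array in each genotype and a fold change of -0.11 ± 0.11. Lox and Loxl2 were near background on all arrays, with fold changes of -0.02 ± 0.04 and 0.03 ± 0.04. The groups overlapped in all 3.

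Of the metalloproteinases, Mmp2, a gelatinase made by fibroblasts, was at 7.25 and 7.23 on the KO arrays, against 7.23 and 7.01 on the WT arrays, so that 3 arrays read alike and the second WT array lay lower. The fold change of 0.12 ± 0.08 was 0.01 without that array. Mmp3 (stromelysin) and Mmp14 (a membrane-bound protease that activates pro-MMP2) were near background. Mmp3 lies 1.09 Mb from Trpc6 on chromosome 9 in the RefSeq table, where Lamb2, Loxl1 and Cilp lie farther away. Mmp3 had a fold change of -0.03 ± 0.04. Mmp14, above background on 2 KO arrays and 1 of 2 WT arrays, had one of 0.05 ± 0.04.

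The TIMP inhibitors all had fold changes above 0, yet their groups overlapped in every case. Timp3, which stays bound to the matrix, was at 8.99 and 9.01 on the KO arrays, against 8.55 and 9.32 on the WT arrays. The KO arrays were nearly equal and lay between the WT arrays. Timp4, the inhibitor typical of heart muscle, was at 8.17 and 8.49 on the KO arrays, against 7.75 and 8.46 on the WT arrays, with the first WT array lowest. Spot medians of Timp3 were 522 and 527 units on the KO arrays, against 399 and 719 units on the WT arrays. The fold change of Timp3 was 0.06 ± 0.26 with all arrays, 0.45 without the second WT array and -0.32 without the first. For Timp4 these values were 0.22 ± 0.26, 0.58 and -0.13. Timp2 was at 6.88 and 7.03 on the KO arrays, against 6.95 and 6.75 on the WT arrays, and the dim Timp1, above background on 1 of 2 WT arrays, had a fold change of 0.06 ± 0.05.

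The first WT array, low for Timp3 and Timp4, was also the lowest for all 5 kept erythroid markers, whose summed normalized intensity was 3670 and 3807 units on the KO arrays, against 1215 and 3070 units on the WT arrays. The part of blood content in the TIMP values was not tested.

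**Figure D4:**
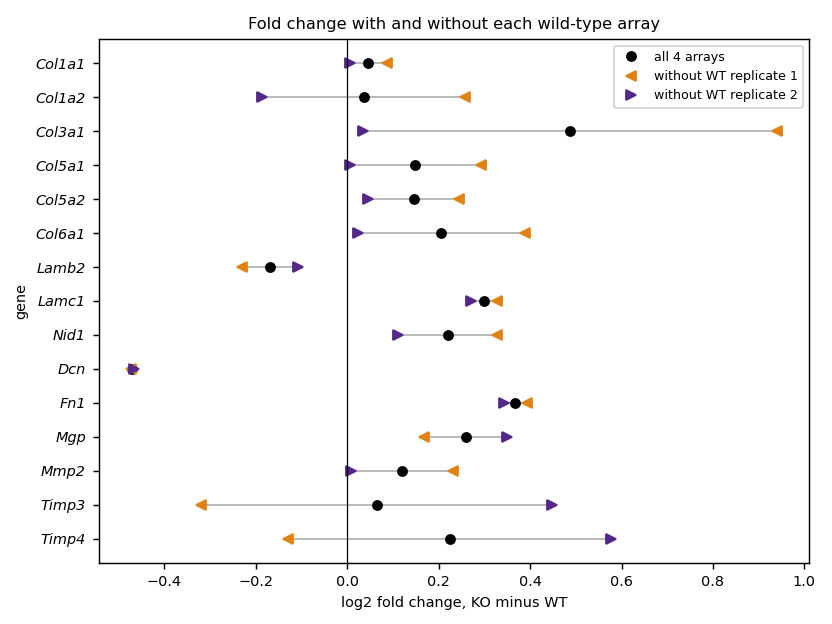
Log2 fold change, KO minus WT, of 15 matrix genes with all 4 arrays (circles), without WT replicate 1 (triangles pointing left) and without WT replicate 2 (triangles pointing right). Col3a1 moves between 0.03 and 0.94, Timp3 between -0.32 and 0.45, and Timp4 between -0.13 and 0.58. Dcn, Fn1, Lamc1, Mgp and Lamb2 are among the genes that stay within 0.1 of their values with all arrays. The KO arrays are not left out in this figure, and Dcn was -0.29 without the second KO array and -0.65 without the first.

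The TGF-beta ligands, the main profibrotic signals of the heart, were dim and nearly level. Tgfb1 was at 6.16 and 6.14 on the KO arrays, against 6.09 and 6.15 on the WT arrays, Tgfb2 at 6.47 and 6.46 on the KO arrays, against 6.50 and 6.51 on the WT arrays, and Tgfb3 at 6.20 and 6.15 on the KO arrays, against 6.19 and 6.18 on the WT arrays. Fold changes were 0.04 ± 0.04 for Tgfb1, -0.05 ± 0.04 for Tgfb2 and -0.01 ± 0.04 for Tgfb3. The 95% intervals were -0.08 to 0.15, -0.15 to 0.05 and -0.12 to 0.10, on a scale that shrinks differences of dim probes. The Tgfb2 groups did not overlap, with both KO arrays slightly under both WT arrays.

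Both receptors of the list had fold changes below 0. Ddr2, a collagen receptor of fibroblasts, was at 6.37 and 6.32 on the KO arrays, against 6.43 and 6.43 on the WT arrays, with no overlap and an unadjusted limma p of 0.103. Pdgfra, the PDGF receptor that marks cardiac fibroblasts, was at 7.55 and 7.65 on the KO arrays, against 7.74 and 7.52 on the WT arrays, with overlapping groups.

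Around these genes, the machinery of matrix production and signalling was described with 5 lists of other genes, and no gene of these lists passed the test over all genes. Of 15 kept genes of collagen synthesis and secretion, 9 had fold changes above and 6 below 0 (51.1% of all genes lay above 0). At an unadjusted p under 0.05, 1 lay above and 0 below, against 3.67% and 3.08% of all genes. These were led by the prolyl isomerase Ppib (cyclophilin B), at 8.84 and 8.76 on the KO arrays, against 8.58 and 8.64 on the WT arrays, with a fold change of 0.20 ± 0.05 and an unadjusted limma p of 0.0133, then the lysyl hydroxylase Plod3 at 0.10 ± 0.05 and P4hb, a subunit of prolyl hydroxylase, at 0.18 ± 0.10. Their median fold change was 0.06.

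Of 22 genes of TGF-beta reception, SMAD signalling and latency, 10 had fold changes above and 12 below 0, with a median of -0.01. At that level 1 lay above and 0 below, against 3.67% and 3.08% of all genes. The latent TGF-beta binding protein Ltbp4 had a fold change of 0.14 ± 0.05 with an unadjusted limma p of 0.0348, Smad2 one of -0.16 ± 0.07 and the ubiquitin ligase Smurf2 one of 0.15 ± 0.07. Ltbp4 was at 7.24 and 7.33 on the KO arrays, against 7.14 and 7.15 on the WT arrays. The fold change farthest from 0 in this list belonged to Ccn2 (connective tissue growth factor, a TGF-beta target), named after its values were seen, at 7.92 and 8.06 on the KO arrays, against 8.22 and 9.53 on the WT arrays. Its second WT array was far above the other 3, and its fold change of -0.89 ± 0.44, with an unadjusted limma p of 0.108, was -0.23 without that array.

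Other matrix proteins gave 13 fold changes above and 12 below 0 among 25, with a median of 0.00, and 8 of 25 were above 0 without the second WT array. At an unadjusted p under 0.05, 0 lay above and 3 below, against 3.67% and 3.08% of all genes. Besides Ogn and Prelp, these 3 included fibulin-5 (Fbln5), an organiser of elastic fibres, at 7.58 and 7.57 on the KO arrays, against 7.79 and 7.81 on the WT arrays, with a fold change of -0.23 ± 0.04, an unadjusted limma p of 0.00285 and an adjusted p of 0.727.

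Other proteases and crosslinkers gave 13 above and 5 below among 18 (51.1% of all genes lay above 0), with a median of 0.02, and 9 of 18 were above 0 without the second WT array and 8 of 18 without the second KO array. At that level 0 lay above and 1 below, against 3.67% and 3.08% of all genes. Cathepsin B (Ctsb), a lysosomal protease, was at 10.23 and 10.22 on the KO arrays, against 10.44 and 10.44 on the WT arrays, with a fold change of -0.22 ± 0.04 and an unadjusted limma p of 0.00287. Adam10, a membrane sheddase, and Mmp11 had fold changes of -0.15 ± 0.06 and -0.14 ± 0.06.

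Integrins and other matrix receptors gave 10 above and 8 below among 18, with a median of 0.01, and 6 of 18 were above 0 without the second WT array. At that level 1 lay above and 0 below, against 3.67% and 3.08% of all genes. Itga9, an integrin alpha chain that binds tenascin and other ligands, was at 7.02 and 7.01 on the KO arrays, against 6.85 and 6.77 on the WT arrays, with a fold change of 0.21 ± 0.05 and an unadjusted limma p of 0.00788. Itga7, the laminin-binding integrin of muscle, was at 8.18 and 8.01 on the KO arrays, against 8.17 and 8.36 on the WT arrays, with overlapping groups, and Itgb8 had a fold change of -0.08 ± 0.06.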

How the data were processed

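Ventricular RNA of 2 KO and 2 WT samples was labelled with Cy5 and read on Toray arrays, per the labels' protocols. The deposited scanner files give, per the file headers, the median intensity of each of 27456 spots and of its local background at 635 nm, with straight lines fitted between scanner gains. A table of linear intensity that the authors processed and deposited followed the spot medians in a straight line on each array after 78.4 to 87.7 units were subtracted and had a median of 25 per column. Of 23473 gene probes, 20690 had 1 symbol in the platform annotation, 0 had several and 2783 had none.

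Spot medians were corrected with normexp (limma 3.58.1, R 4.3.3, offset 50, fitted on all spots, no local background subtraction), and log2 values were quantile normalized over gene probes. A gene was represented by its brightest kept probe. Groups were compared with lmFit and eBayes without covariates (2 residual and 2.49 prior degrees of freedom), two-sided, with Benjamini-Hochberg adjustment over 15955 genes and a threshold of 0.05. For 2 against 2 samples the smallest two-sided p of an exact permutation test is 0.333. The fit was tested on simulated data.

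The genes and lists were chosen with earlier results of these data known. Given in full were matrix genes with an unadjusted p under 0.05, or with no overlap of the groups and an absolute fold change of at least 0.2, or with one of at least 0.3, and of each other list the 3 genes with the smallest p. Timp3, Timp4 and the cell type markers named were chosen after their values were seen. Alternatives changed the background correction, scaling, filter, source of values (the authors' table, floored at its 1st percentile), probe choice and variance model, added a replicate block, or left out each array. Marker lists also covered endothelial cells (6 of 13 fold changes above 0), neutrophils (1 of 6), atrial (2 of 5), epicardial (5 of 8) and adipocyte genes (2 of 5), and cardiomyocytes (6 of 12), macrophages (9 of 11), fibroblasts (6 of 11) and erythroid cells (5 of 5).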

Additional observations from a re-analysis of the deposited data

How the results depend on the processing

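Of 105 values of the 7 genes given in full under 15 alternatives, 104 kept their sign and none had an adjusted p under 0.05. The exception was Col3a1, at -0.94 with the local background subtracted, and the cause was not tested. Because the groups of these 7 genes did not overlap, leaving out 1 array could not change their sign. The filter, the variance model and the replicate block left their fold changes as they were, and averaging probes changed only that of Col3a1. Those alternatives therefore do not test the sign. Over all alternatives the fold change of Fn1 was 0.23 to 0.58, of Mgp 0.17 to 0.57, of Lamc1 0.23 to 0.43, of Nid1 0.11 to 0.33, of Lamb2 -0.40 to -0.11 and of Dcn -0.65 to -0.29. The count of all genes with an adjusted p under 0.05 was 0 to 1 with each array left out in turn, the 1 being the globin gene Hba-a2 without WT replicate 2. Matrix genes higher in the KO at an unadjusted p under 0.05, 3 with all arrays, were 2 to 11 with each array left out, with 11 without WT replicate 1 (7.16% of all genes in that fit) and 5 without WT replicate 2 (3.46% of all genes). Those lower were 2 with all arrays (3.08% of all genes) and 0 in the authors' table (2.93% of all genes). The count was 1 with a normexp offset of 16 (3.38% of all genes) and with the local background subtracted (3.62%). It was also 1 with median scaling (4.24%), with 75th percentile scaling (2.6%) and with an intensity trend (3.28%). The median fold change of the 47 genes, 0.04, was 0.12 in the authors' table and 0.01 to 0.05 with each array left out. Genes above 0 were 27 to 37 over all alternatives. In 19 of the 47 genes, 16 higher and 3 lower, the sign held in every alternative that gave a value. This split depends in part on scaling. With 75th percentile scaling the median of all genes was 0.04, and Col6a3 and Lox were above 0 in that setting only. The filter, the variance model and the replicate block left the fold changes of all kept matrix genes as they were. Nor could leaving out 1 array change the sign where the groups did not overlap. The share over all genes was not counted. Over all genes the split at an unadjusted p under 0.05 was 585 higher and 491 lower, against 397 and 676 with median scaling, 718 and 415 with 75th percentile scaling and 218 and 467 in the authors' table. The count of matrix genes lowest on WT replicate 2 was 16 to 29 of 47 over background and scaling settings. This count was chosen after the data were seen. It was 16 with the local background subtracted (24.1% of all genes) and 29 with 75th percentile scaling (49.1% of all genes). In the setting reported it was 23 (32.3% of all genes). For fibrillar collagens it was 2 of 5 with the local background subtracted. The labels number the replicates but do not say that numbers pair the samples. Deviations of same-numbered arrays had a correlation across genes of 0.10. With a replicate block 3 matrix genes lay above WT at that unadjusted level (3.94% of all genes) and 1 below (3.26%). Signal close to background limits the values of the 20 dimmest genes.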
